A study of Mus musculus with 2 samples.

Results

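Fast skeletal muscle genes were read in peeled mouse epidermis of a control genotype and of a genotype labelled as lacking IκBζ in keratinocytes. The set held 10 genes of 18202 that could be named, chosen by symbol: Acta1, Myl1, Mylpf, Myh4, Tnnt3, Tnni2, Tnnc2, Ckm, Atp2a1 and Pvalb. They were represented by 14 of 41134 probes, with 1 probe for each of 6 genes and 2 probes for each of the other 4. The set was proposed with the values of these arrays already known, so its differences are given as a description and none was tested.

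The control epidermis came from Nfkbiz flox/flox mice, whose Nfkbiz alleles are flanked by loxP sites. The knockout epidermis carried the same floxed alleles together with the K5-cre transgene, in which Cre is driven by the promoter of keratin 5, a gene of basal keratinocytes. By design, cells in which that promoter is not active, such as muscle fibres, keep the floxed alleles. Both genotypes were in the steady state, and the age, sex and number of mice behind each RNA are not given in the sources used here. Ammonium thiocyanate loosened the skin and forceps were used to peel the epidermis away, although the extraction notes speak of homogenised skin tissue. Each genotype was measured on 1 one-colour Agilent array, so the design has no replicate, and the number of arrays limits the precision.

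A muscle fibre contracts when myosin thick filaments pull on actin thin filaments within the sarcomere, and calcium starts this by binding the troponin complex on the thin filament. Fast and slow fibres build much of the same machine from different gene copies, and most genes described here are the copies typical of fast fibres. Acta1 and Ckm, the actin and creatine kinase of skeletal muscle, are not confined to fast fibres. Epidermis itself holds no muscle fibres. In mouse skin the nearest skeletal muscle is the panniculus carnosus, a thin sheet beneath the dermis.

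The promoters of 8 of the 10 genes were in the RefSeq table (build GRCm38.p6), and Tnnt3 and Tnni2 were not. The 150 bases that end just before the annotated start are shown for 5 genes with lower signals on the knockout array and for 2 with nearly equal signals, so that the groups can be set side by side. Capitals mark the E box (CANNTG, bound by myogenic factors such as MyoD), the CArG box of serum response factor and TATAAA, each searched on both strands.
Acta1, chr8:123894776-123894925, minus strand: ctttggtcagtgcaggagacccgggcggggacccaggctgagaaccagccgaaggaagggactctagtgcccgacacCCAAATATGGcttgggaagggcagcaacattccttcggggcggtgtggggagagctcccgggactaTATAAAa
Myl1, chr1:66945057-66945206, minus strand: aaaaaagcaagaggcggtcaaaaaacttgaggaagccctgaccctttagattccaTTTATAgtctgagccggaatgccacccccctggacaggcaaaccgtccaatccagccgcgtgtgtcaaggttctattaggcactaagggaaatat
Myh4, chr11:67237662-67237811, plus strand: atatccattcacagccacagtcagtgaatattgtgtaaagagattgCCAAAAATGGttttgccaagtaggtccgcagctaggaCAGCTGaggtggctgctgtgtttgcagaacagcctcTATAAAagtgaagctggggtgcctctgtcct
Tnnc2, chr2:164779735-164779884, minus strand: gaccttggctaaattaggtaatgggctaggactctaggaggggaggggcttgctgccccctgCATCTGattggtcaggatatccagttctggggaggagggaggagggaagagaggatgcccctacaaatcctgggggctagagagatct
Ckm, chr7:19410944-19411093, plus strand: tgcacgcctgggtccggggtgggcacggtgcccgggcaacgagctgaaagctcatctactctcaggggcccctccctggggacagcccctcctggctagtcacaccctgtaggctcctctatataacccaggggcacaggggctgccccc
Mylpf, chr7:127211458-127211607, plus strand: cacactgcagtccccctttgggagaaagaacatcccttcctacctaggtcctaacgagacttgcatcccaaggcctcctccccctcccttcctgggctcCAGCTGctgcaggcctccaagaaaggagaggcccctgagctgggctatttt
Atp2a1, chr7:126463074-126463223, minus strand: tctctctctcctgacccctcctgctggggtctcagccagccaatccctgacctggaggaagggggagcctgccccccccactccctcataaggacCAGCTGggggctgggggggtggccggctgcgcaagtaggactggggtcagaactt

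A CArG box was found in 2 of the 9 windows of these 8 genes, those of Acta1 and Myh4, against 0.916% of 32851 windows of the same length over all genes. An E box was in 5 of 9 windows against 47.7% of all windows, and TATAAA in 3 of 9 against 7.57%. The core motif of MEF2, another muscle transcription factor, was in none of the 9 and in 0.332% of all windows. Set against the gene bounds in RefSeq's table of the same build, the windows of Myl1 and Mylpf lay wholly inside the gene. So did the Pvalb window that held an E box, while Pvalb's other window, without one of these motifs, lay outside the gene. The Atp2a1 window lay partly inside. These matches describe letters in a window, not sites of binding.

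The sample's epidermal markers were bright on both arrays. All 11 keratinocyte genes examined were well above background, among them Krt5 at processed signals of 52200 (control) and 54400 (knockout) and Krt10 at 76900 and 80200, and their scaled log2 differences lay between -0.31 and 0.41. Nfkbiz itself had signals of 3100 and 1760, which is 2.05-fold lower on the knockout array after scaling. Scaling set each array's 75th percentile of signal, 205 for control and 239 for knockout, to the same level. The software marked 56.3% of probes on each array as well above background and no probe as saturated. The lowest signals so marked were 12.7 (control) and 12.1 (knockout), and the negative control spots had medians of 3 and 2.8.

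Signals of the fast muscle genes fell into 3 kinds. Myosin light chain 1, skeletal actin, the 3 troponin subunits, the fast myosin heavy chain and muscle creatine kinase were lower on the knockout array, by 3.33 to 20.4-fold where both arrays gave a measurement. The regulatory light chain gene Mylpf and the brighter probe of the calcium pump gene Atp2a1 lay at nearly the same level on both arrays. Parvalbumin was not well above background on either. Of the 7 genes with a measurement on both arrays, 5 were at least 2-fold lower and 0 at least 2-fold higher, against 4.39% and 3.02% of all 12405 genes with a measurement on both arrays. At 1.5-fold and at 3-fold the count was 5 of 7 as well, against 13.2% and 1.52% of all genes. The median log2 difference, knockout minus control, was -2.02 over those 7 genes and -0.04 over all 12405. Since these differences helped to choose the genes, the counts stand as a description. Fewer muscle fibres in the sample and less RNA per fibre cannot be told apart in such bulk tissue.

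**Figure D1:**
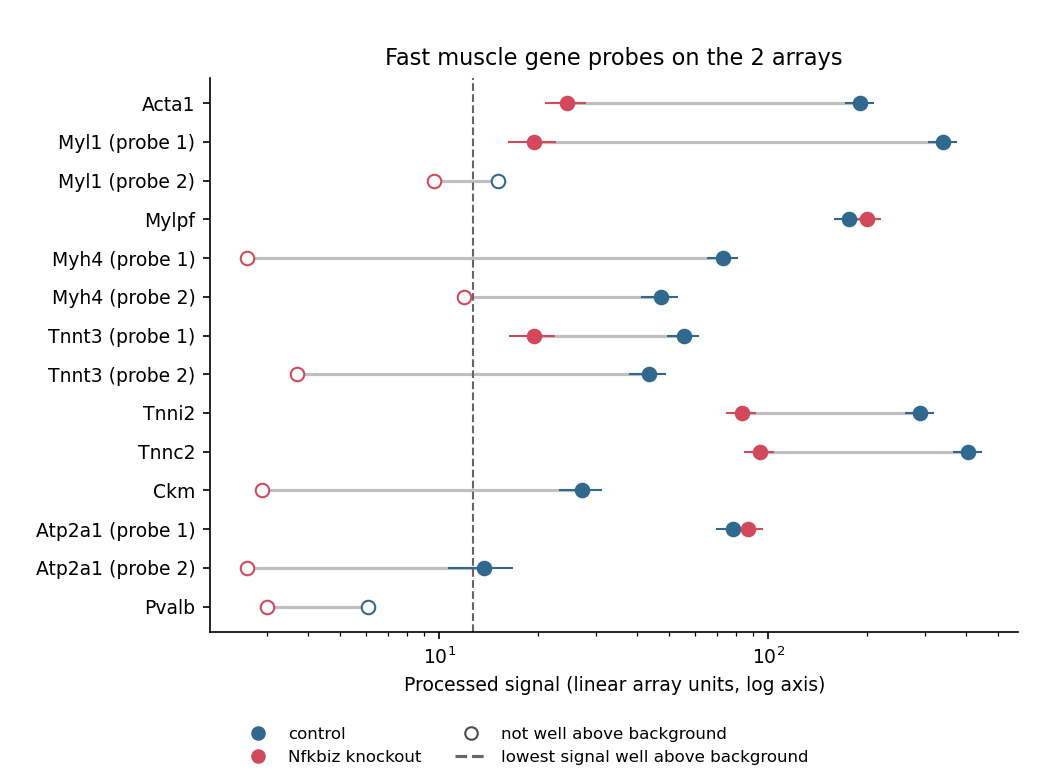
Processed signal (linear array units on a log axis) of each of the 14 probes for control (blue) and knockout (red), with the scanner software's error as a bar for signals well above background. Open circles are not well above background, the dashed line is at 12.7, and among the probes measured on both arrays Mylpf and the brighter Atp2a1 probe have their points close together.

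In the thick filament, Myh4 encodes the heavy chain of the fastest fibres, and its head is the motor that pulls on actin. Its probe with the higher control signal gave 72.9 ± 7.79 in control and 2.61 in knockout epidermis. The software's error for the latter is as large as the signal. The other probe gave 47.1 ± 6.09 and 11.9. Neither probe was well above background on the knockout array, so the gene has only a bound there. The bound sets the control signal against the higher of the probe's own knockout signal and the lowest signal well above background, and by it Myh4 was at least 7.02-fold lower by one probe and at least 4.54-fold lower by the other. Of all genes, 484 were measured in control epidermis alone, and 37.6% of these had a bound of at least 2-fold. In the other direction, 584 genes were measured in knockout epidermis alone, and 17% of these had a bound of at least 2-fold.

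Myl1 encodes the essential light chain that stiffens the neck of fast myosin. Its brighter probe gave 340 ± 34.1 and 19.4 ± 3.21, a log2 difference of -4.35 ± 0.28, or 20.4-fold. The error after a log2 difference is the standard error from the scanner software's error model and covers technical error within the 2 arrays, not differences between mice. With each gene taken at its brightest probe, this was the lowest difference of all 12405 genes measured on both arrays. That rank depends on the choice of probe. The β-globin gene Hbb-bt stood at -4.29 ± 0.20 by its brightest probe and at -4.60 ± 0.21 by another. The second Myl1 probe, named for another RefSeq transcript of the gene, gave 15.1 and 9.66 and was not well above background on either array, so the light chain result rests on 1 probe.

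Mylpf encodes the other, regulatory light chain of fast myosin, which is phosphorylated during activity and tunes contraction. Its probe gave 176 ± 18.0 in control and 200 ± 20.2 in knockout epidermis, a log2 difference of -0.04 ± 0.21 after scaling. It thus stayed level while its partner Myl1 was far apart. The light chains lay 4.32 apart in log2 difference, with a combined standard error of 0.35 that carries technical error only. Under median scaling Mylpf stood at 0.28, where the median of all genes was also at 0.28.

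In the thin filament, Acta1 encodes the actin of adult skeletal muscle. It gave 190 ± 19.2 in control and 24.4 ± 3.46 in knockout epidermis, a log2 difference of -3.18 ± 0.25, or 9.08-fold. The actins of other cells did not share a fall of this size. Actb, the cytoplasmic β-actin, differed by -0.13 ± 0.06 and the cytoplasmic γ-actin gene Actg1 by -0.91, from 48500 to 30100. Acta2, the actin of smooth muscle, differed by -1.11 at its brighter probe, from 4860 to 2630, and by 0.07 at its other measured probe, from 127 to 155.

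The troponin complex was read through all of its fast subunits, and each was lower in knockout epidermis. Tnnc2, the calcium-binding subunit, gave 405 ± 40.7 and 94.3 ± 10.1, a log2 difference of -2.32 ± 0.21 (5.01-fold). Tnni2, the inhibitory subunit that keeps myosin off actin at rest, gave 289 ± 29.1 and 83.2 ± 8.79, a difference of -2.02 ± 0.21 (4.05-fold). These 2 subunits lay 0.31 apart in log2 difference, with a combined standard error of 0.30. Tnnt3, the subunit that ties the complex to tropomyosin, gave 55.4 ± 6.10 and 19.4 ± 3.1 at its brighter probe, a difference of -1.74 ± 0.28 (3.33-fold). That difference was -1.42 with median scaling, -1.5 with quantile normalization and -1.54 with cyclic loess. It was -0.61, under 2-fold, with normexp background correction of median spot signals followed by quantile normalization. Its second probe gave 43.4 ± 5.62 and 3.70, the latter not well above background, and was at least 4.18-fold lower. Tnni2 and Tnnt3 lie near each other on mouse chromosome 7, with Lsp1, a gene of white blood cells, between them. Lsp1 gave signals of 73.2 and 140 and a difference of 0.71 ± 0.21, and Syt8, on the other side of Tnni2, gave 18.0 and 15.6 and a difference of -0.43 ± 0.38. The 5 genes of the set on chromosome 7 included the level Mylpf and Atp2a1 as well as the lower Tnni2, Tnnt3 and Ckm.

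Among the genes that supply energy and handle calcium, Ckm encodes muscle creatine kinase, which regenerates ATP from phosphocreatine. It gave 27.2 ± 4.07 in control and 2.90 in knockout epidermis, at the level of the negative controls, and was at least 2.62-fold lower. Ckb, the creatine kinase of brain and many other tissues, was also lower, with 3020 and 1160 at its brighter probe and 1070 and 396 at the other (log2 differences of -1.60 ± 0.20 and -1.66 ± 0.20). The ubiquitous mitochondrial creatine kinase, Ckmt1, differed by -0.02, from 9220 to 10600.

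Atp2a1 encodes the calcium pump that refills the sarcoplasmic reticulum of fast fibres, and its probes did not give the same picture. The brighter gave 77.9 ± 8.50 and 87.1 ± 9.24, a log2 difference of -0.06 ± 0.22. The dimmer gave 13.7 ± 3.03, only just above the lowest signal called well above background, and 2.60, so that its bound was 1.32-fold lower at the least. Atp2a2, the pump of slow and heart muscle and of most other cells, keratinocytes included, differed by -0.09, from 529 to 579. Pvalb, which buffers calcium in fast fibres, gave 6.08 and 3, neither well above background, so no direction can be given.

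**Figure D2:**
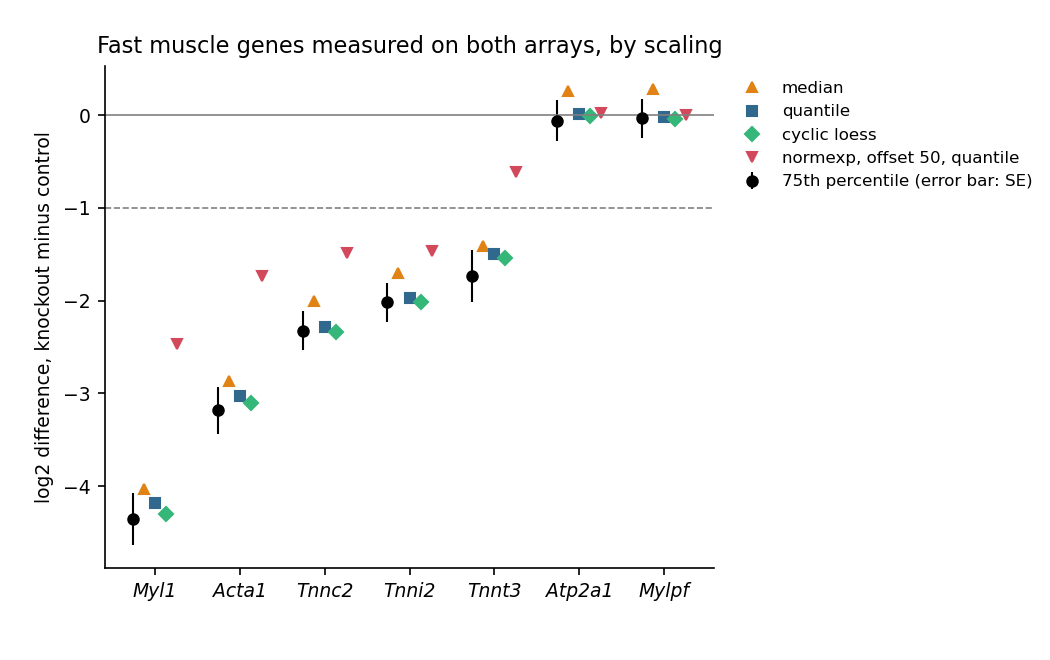
Log2 difference, knockout minus control, of the 7 genes measured on both arrays under 5 ways of scaling, with the standard error of the scanner error model for the 75th percentile values. Myl1, Acta1, Tnnc2 and Tnni2 lie below the dashed 2-fold line at -1 under every scaling shown, Tnnt3 crosses it with normexp followed by quantile normalization (-0.61), and Atp2a1 and Mylpf stay near 0.

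The order of the differences was Myl1, Acta1, Tnnc2, Tnni2, Tnnt3, Atp2a1 and Mylpf, from lowest to highest. Tnni2 and Tnnt3 lay 0.28 apart, within their combined standard error of 0.35, and Atp2a1 and Mylpf 0.02 apart, so these neighbours do not differ beyond technical error. Myl1 and Acta1 were 1.17 apart, Acta1 and Tnnc2 0.86, and Tnnt3 and Atp2a1 1.67, against combined standard errors of 0.38, 0.33 and 0.36. With normexp (offset of 50) followed by quantile normalization the differences were smaller, at -2.47 for Myl1, -1.73 for Acta1, -1.48 for Tnnc2 and -1.46 for Tnni2, and their order was the same. By brightest probes, the first 5 ranked 1, 14, 46, 85 and 144 from the lowest difference among all 12405 genes measured on both arrays. Atp2a1 and Mylpf ranked 5965 and 6238, in the middle. Restricting the comparison to the 3450 genes with a mean scaled signal in the same range left 6.35% at least 2-fold lower. With 2 arrays a pattern across samples is a single difference, and the genes outside the muscle lists closest to the median of the set by that measure were Pmel (-2.03), Insl6 (-2.03), Enpp1 (-2.00), Evx2 (-2.03) and Mideas (-2.00).

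**Figure D3:**
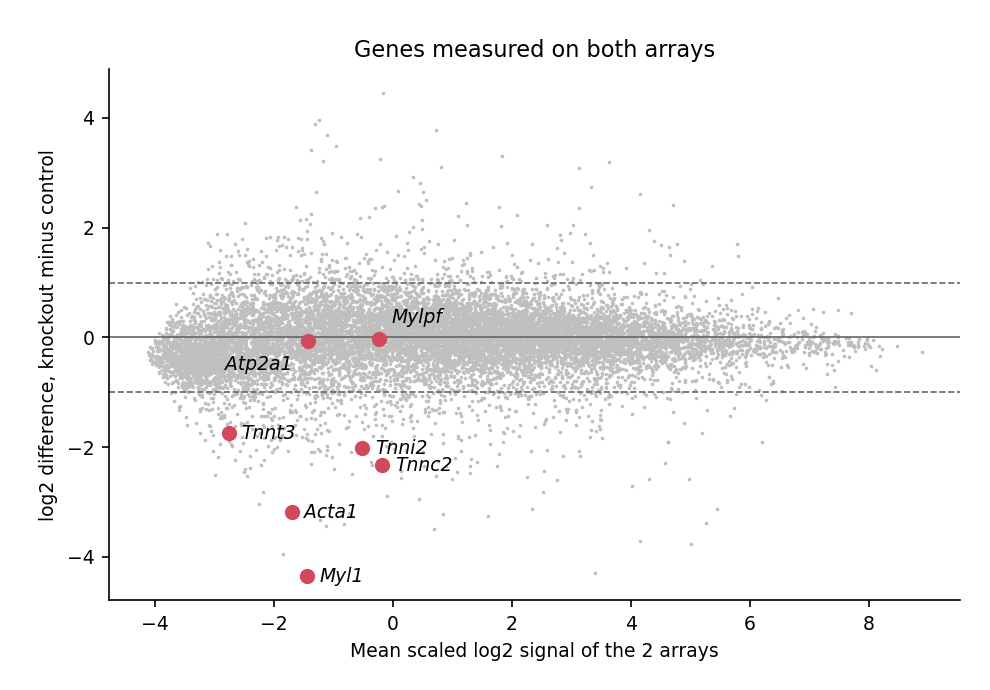
Each grey point is 1 of the 12405 genes measured on both arrays, by its mean scaled log2 signal and its log2 difference, knockout minus control; red points are the 7 fast muscle genes measured on both. With each gene at its brightest probe, Myl1 at -4.35 is the lowest point, and Mylpf and Atp2a1 sit in the middle of the cloud.

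The position of the probes on the slide was examined, since stains or bubbles can move signals of neighbouring spots together. Within 3 rows and 3 columns of each of the 14 probes, 12 to 31 other spots were measured on both arrays, and the medians of their differences ranged from -0.29 to 0.11. At most 3 of the neighbours of any probe were at least 2-fold lower. Spots marked as non-uniform lay this close to 1 probe alone, the brighter one of Tnnt3, which had 2 of them. For 45 probes printed on at least 5 spots and with signals between 32.8 and 195, the median SD of the array difference between spots of a probe was 0.14 and the 95th percentile was 0.27, on the log2 scale.

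Other genes of muscle fibres were mostly too dim to be read. Of 17 further fast fibre genes, 7 were measured on both arrays, and 2 of these were lower by 2-fold or more and 0 higher. Their median was -0.23. By their brightest probes, the lower ones were Myh1 and Cacna1s. Myh1, the heavy chain of another class of fast fibre, gave 50 and 28.5 (2.05-fold, -1.03 ± 0.31). Cacna1s, the voltage sensor of muscle, gave 32.3 and 17.7 (2.13-fold, -1.09 ± 0.38). Both lay closer to the 2-fold line than their errors, and their values under other scalings are not given here. Tpm1, a tropomyosin also made outside muscle, differed by -0.20 at its brightest probe, from 3880 to 3940, and by -0.34 at the next, but another probe, named for a different transcript, gave 227 and 101 (-1.39 ± 0.21). Mybpc2, a fast fibre protein that braces the thick filament, gave 40.1 and 11.3 and was at least 3.86-fold lower. Tmod4, which caps the thin filament of skeletal muscle, gave 147 and 193 (a log2 difference of 0.17), Eno3, the muscle enolase, gave 152 and 151 (-0.23), and Pgam2, the muscle phosphoglycerate mutase, gave 25.6 and 47.6 (0.67). Measured on the knockout array alone were Ryr1, the calcium release channel, with 7.2 and 15.2 (at least 1.03-fold higher), and Pygm, the muscle glycogen phosphorylase, with 8.92 and 16.2 (at least 1.09-fold higher). The fast genes Actn3, Casq1, Myoz1 and Myh2 did not rise well above background on the arrays.

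Genes shared by all striated fibres gave few measurements. Of 20 with a named probe, 4 were measured on both arrays and none of these was 2-fold apart, with a median of -0.30. The brightest of the 4 were Fhl1 (1250 and 1160) and Tpm2 (563 and 697). Tcap, which anchors titin at the Z disc, gave 48.2 and 16.7, the latter not well above background, and was at least 3.36-fold lower. Lmod3, which nucleates actin in muscle, went the other way, with 9.33 on the control array, not well above background, and 49.4 on the knockout array, at least 3.34-fold higher. Ttn, the titin gene, gave 19.2 and 7.08, a bound of 1.85-fold, at the only one of its probes that was well above background on an array. Neb, Des, Actn2 and Myot, further defining genes of the striated sarcomere, were not well above background on either array.

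Slow fibre genes gave few measurements, with 3 of 12 measured on the control array alone and 2 on the knockout array alone. Tnnt1, the slow partner of Tnnt3, gave 55.5 and 4.13 and was at least 5.35-fold lower, and Tnni1, the slow partner of Tnni2, gave 21.7 and 10.4 and was at least 2.09-fold lower. Myl3, the light chain of slow and heart muscle, gave 63.0 and 40.8 (a log2 difference of -0.85 ± 0.24) at its probe measured on both arrays. Another Myl3 probe gave 78.5 and 2.69 and was at least 7.56-fold lower. Myh7, the slow heavy chain, was measured on the knockout array alone by both of its probes. The brighter gave 21.9 and 23.7, a scaled log2 difference of -0.11 ± 0.42, so no direction can be given by it. The dimmer gave 9.38 and 15.7 and was at least 1.06-fold higher. Pln, which restrains the calcium pump of slow and heart muscle, gave 14.0 and 17.5 and was at least 1.07-fold higher. Of the 12 slow genes, 3 were measured on both arrays, Tpm3 (6260 and 7080), Myl3 and Mb, and none was 2-fold apart. Mb, the myoglobin gene, gave 36.0 and 37.1 (-0.18), and Tnnc1, the slow partner of Tnnc2, was not well above background on either array.

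The muscle energy list held genes specific to striated fibres and genes used by most cells. Cox6a2, the muscle form of a respiratory chain subunit, gave 32.4 and 12.5 (3.02-fold lower), and Cox8b, another muscle form, gave 22.5 and 8.14 (at least 2.17-fold lower). Aldoa, the aldolase of muscle and many other tissues, gave 51800 and 58700 (-0.04). Cox7a1 and Fabp3, the latter a fatty acid carrier of heart and muscle, differed by -0.85 and -0.79. Of the 8 genes of this list with both measurements 1 was lower by 2-fold or more, and the median was -0.18. Among embryonic and cardiac copies, Myh8, the perinatal heavy chain, gave 54.5 and 9.40 and was at least 5.25-fold lower at its brighter probe, while the 5 genes measured on both arrays, the heart actin gene Actc1 and the heart troponin genes Tnnt2 and Tnni3 among them, lay between -0.47 and -0.06.

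The factors that set up muscle were near background. Of 17 regulators and satellite cell genes, 10 were not well above background on either array, Myog, Myf5, Myf6 and Pax7 among them, and Myod1, the master factor of the lineage, gave 14.8 and 8.63, a bound of 1.42-fold. Of 6 genes with both measurements 1 was lower by 2-fold or more, Chrne, the adult subunit of the acetylcholine receptor at the nerve-muscle contact, with 94.9 and 28.0 (-1.98 ± 0.24). Its other probe, with 17.9 and 13.7, differed by -0.61 ± 0.43. Mef2a, a factor also made outside muscle, gave 90.4 and 170 (0.69).

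**Figure D4:**
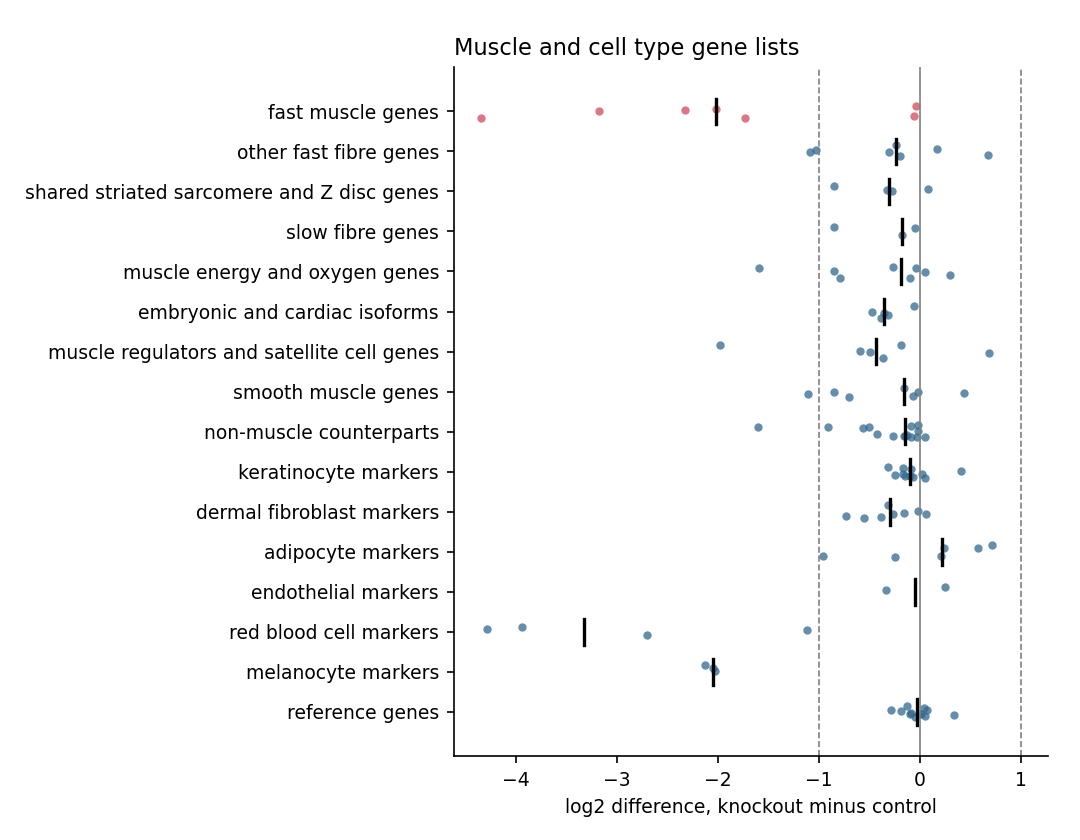
Log2 difference, knockout minus control, of every gene measured on both arrays in each list (points, shifted up and down at random so that they do not overlap), with the list median as a black bar and 2-fold as dashed lines. The fast muscle genes, the red blood cell markers and the melanocyte markers have medians of -2.02, -3.32 and -2.05, and the other lists have medians between -0.43 and 0.22. Genes measured on 1 array alone are not shown and do not enter the medians, which rest on 3 slow fibre genes and 2 endothelial genes. Of such genes in the other muscle lists, Mybpc2, Tcap, Tnnt1, Tnni1, Cox8b and Myh8 were at least 2-fold lower by their bounds. Lmod3 was at least 2-fold higher by its bound.

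Smooth muscle genes, which mark arrector pili muscles and vessel walls, had 7 of 10 members measured on both arrays and a median of -0.16. Of these 7, only Acta2 was at least 2-fold lower, by 1 of its 2 measured probes as given above. Myh11, the heavy chain that defines smooth muscle, was not well above background on either array (7.68 and 2.84), and Tagln, an actin-bundling protein, gave 156 and 247 (0.44). The non-muscle counterparts of the set gave a median of -0.14 over 15 genes, of which only Ckb was at least 2-fold lower. Myl6 and Myl12b, light chains of non-muscle myosin, differed by -0.14 and -0.26, and Myh9, a non-muscle heavy chain, by -0.51.

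Some markers of other cell types were also apart. Of the 7 red blood cell genes, 5 had a named probe, 4 were measured on both arrays and all 4 were lower by 2-fold or more, with β-globin (Hbb-bt) at 9570 and 569 and α-globin (Hba-a1) at 8510 and 1520. The summed signal of the 5 before scaling went from 18372 to 2146, and the ratio of knockout to control after scaling was 0.10. Of the 7 melanocyte genes, 6 had a named probe and the 3 measured on both arrays, Dct, Tyrp1 and Pmel, were 4.36, 4.13 and 4.08-fold lower. The summed signal over the 6 before scaling went from 1789 to 492 (a scaled ratio of 0.24). Over the 10 fast muscle genes, with 1 probe a gene, the unscaled sum went from 1639 to 536 (a scaled ratio of 0.28). Myh4 entered this sum at its probe with the larger bound, 72.9 and 2.61. Tyr, a defining melanocyte gene, was not well above background on either array.

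Markers of dermal fibroblasts lay closer to level than the red cell and melanocyte genes. Of the 12 dermal fibroblast genes 8 were measured on both arrays and none was 2-fold apart, with a median of -0.29. The summed signal of all 12 before scaling, including those not well above background, was 4778 and 4733. Thy1 was its largest part, at 2110 and 2050. The ratio of knockout to control after scaling was 0.85. Collagen genes were among the 12, with Col1a1 at 968 and 1115 (-0.02) and Col3a1 at 641 and 600 (-0.32). Dcn, a small proteoglycan of dermis, gave 381 and 267 (-0.73). Adipocyte genes had a median of 0.22 over 6 measured on both arrays, of which 4 were above 0 and 2 below. They ran from Plin4, a lipid droplet protein, at 91.9 and 55.2 (-0.96) to Cfd, the adipsin gene, at 90.8 and 174 (0.72), with Retn at -0.24, Fabp4 at 0.21, Cidec at 0.24 and Adipoq at 0.58. Of the 8 endothelial genes, Emcn gave 55.6 and 3.38 and was at least 5.36-fold lower, Tek gave 4.6 and 19.2 and was at least 1.30-fold higher, the 2 measured on both arrays, Flt1 and Cldn5, differed by 0.25 and -0.34, and Pecam1, Cdh5, Kdr and Tie1 rose well above background on neither. The part of red cells, melanocytes or vessels in the muscle gene difference was not tested. The sources used here do not say how much tissue below the epidermis each sample held, and with 1 array per genotype the preparation and the genotype cannot be told apart.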

How the data were processed

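Both arrays, of a design annotated on mm9, were read with Agilent Feature Extraction 10.7.3.1, and per the file headers the deposited processed signal is an intensity on a linear scale, subtracted for background and detrended within each array. The authors also deposited log2 values, which were centred per probe, since the columns sum to 0, and were used for differences alone. Their difference had a Pearson r of 1.00 across measured probes with that of the scanner values.

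Processed signals were divided by each array's 75th percentile over non-control spots and taken to log2. Spots marked as outliers were removed, spots of a probe averaged, and a probe counted as measured when at least 0.5 of its kept spots were well above background and none was saturated. RefSeq accessions (GRCm38.p6 table, names alone) named 26654 of 41134 probes. A gene took its brightest probe by mean scaled log2 signal among those measured on both arrays. A gene measured on 1 array alone entered its list and the sums at the probe with the largest bound. Python 3.11.15, numpy 2.4.6, pandas 2.3.3, matplotlib 3.10.9 and limma 3.58.1 in R 4.3.3 were used, and the calling code was tested on simulated data.

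The genes and all comparison lists were chosen with earlier results of these data known. Named genes were the set, Nfkbiz, up to 6 furthest apart and the brightest gene of each list, slow, regulator and non-muscle genes, and the 5 closest in difference. Genes named for a bound, a neighbouring position or a low signal, and other list members such as Col3a1, Tagln, Tnnt2 and Tmod4, were chosen after their values were seen. Proteins of the set were not compared here. Alternatives were other scalings, normexp followed by quantile normalization, the authors' table, the mean over probes, outlier spots kept, filters on dim probes and fold thresholds of 1.5 and 3.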

Additional observations from a re-analysis of the deposited data

How the results depend on the processing

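No paired analysis was possible because there was 1 array per genotype. Of the 7 genes with a measurement on both arrays, 5 remained 2-fold or more lower under the 75th percentile, median scaling, the percentile over measured probes, quantile normalization, cyclic loess, the mean over probes, outlier spots kept and the authors' table, and 5 also at 1.5-fold and at 3-fold. Normexp with an offset of 50 followed by quantile normalization left 4, with Tnnt3 at -0.61, and a median of -1.46 against -2.02. It was run on median spot signals without non-uniform spots, a choice made after seeing the data, and which of these steps moved the values was not tested. Without a filter on background 8 of 10 genes were at least 2-fold lower, against 1420 of all 18202 genes. The genes so added were Myh4, Ckm and Pvalb, whose knockout signals were not well above background. Pvalb, at -1.24 ± 1.61, still has no direction. With Myh4 and Ckm at their bounds, also chosen after seeing the data, the count was 7 of 9 and the median -2.02. A gene measured on the control array alone cannot count as higher by its bound. Of all 484 such genes, 37.6% had a bound of at least 2-fold, so this setting adds little. Of 70 values of single genes under alternatives, 65 stayed within the 95% interval of the scanner error model. The other 5 moved by more, all under normexp with quantile normalization, and all were still below 0. The mean over probes, outlier spots kept and both looser filters on background returned the main value for all 7 genes. Each gene had only 1 probe measured on both arrays, so a mean over probes could not differ. The authors' table held nearly the same differences as the scanner values. These settings therefore add little to the tally or to the count of 5. Mylpf and Atp2a1 lay between -0.07 and 0.28 throughout, so their sign depends on the scaling.

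Over all genes, 545 were at least 2-fold lower and 375 higher. The lower count was 294 with median scaling, 232 with normexp, 1639 at 1.5-fold and 188 at 3-fold. It was 1420 of 18202 genes without a filter and 830 of 13496 when 1 array sufficed for a gene. The share of higher genes among those past 2-fold was 40.8%, and 76.4% under median scaling, which raised the median of all genes from -0.04 to 0.28. Signal over background limits Myh4, Ckm and Pvalb, which were not well above it on the knockout array.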
